A study of Mus musculus with 12 samples.

Results

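What the S96A variant of HRC adds to a homozygous deletion in MYBPC3 was read from mouse hearts at 6 months of age. The comparison sets 3 compound libraries, whose mice carried the HRC S96A variant on one allele and the MYBPC3 25 bp deletion on both, against 3 libraries from mice with the same homozygous deletion and no HRC variant. These are 6 of the 12 libraries of the series; they were taken by their labels and by no measured value. The other libraries, 3 nontransgenic hearts and 3 hearts heterozygous for the HRC variant alone, entered the statistical model and serve here to show how each value varied outside the comparison. All compound mice and all HRC variant mice were female, while the deletion group and the nontransgenic group each held 2 males and 1 female. The labels name the strain background as C57BL and the tissue as heart, with no chamber, and do not say how the alleles were made or how many founder lines stand behind a group. Since both groups compared carry the deletion, the comparison shows nothing of what the deletion itself does.

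HRC, the histidine-rich calcium-binding protein, sits in the lumen of the sarcoplasmic reticulum, where it binds calcium and takes part in both uptake by the SERCA pump and release through the ryanodine receptor. Its S96A variant is known from human cardiomyopathy as one linked to ventricular arrhythmia. MYBPC3 encodes cardiac myosin-binding protein C, a thick filament protein that tunes the cycling of cross-bridges, and the 25 bp deletion models an intronic variant of people of South Asian ancestry. The atria and ventricles of the heart express different sets of muscle genes, the atria being marked by atrial natriuretic peptide and atrial myosin light chains. Fibroblasts, macrophages, vessels and the outer epicardial layer supply the rest of the RNA of a whole heart.

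Total counts were 15615182, 16161206 and 17999983 in the deletion libraries and 18108213, 17796067 and 18077980 in the compound ones. Summed counts of 4 Y-linked genes were 1756 to 2735 in the 4 libraries labelled male and 0 to 10 in the 8 labelled female, so sex labels and counts matched in all 12. The libraries stood apart in atrial transcripts: the mean log2 level of 23 atrial genes, centred on the 12 libraries, was 1.04, 0.43 and 0.96 with the deletion alone and -1.54, -2.16 and -1.10 in the compound hearts. It was 0.04, 1.58 and 1.13 in the nontransgenic hearts, and 1.45, 0.39 and -2.21 in the hearts with the HRC variant alone. All compound libraries were thus low and all deletion libraries high, and 1 library outside the comparison, HRC variant replicate 3, was as low as the compound ones. The labels give no dissection of chambers. For the 6 libraries compared, the low atrial level and the compound genotype cannot be told apart, and this touches most results that follow.

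Mybpc3 mRNA (gene ID 17868, on the plus strand of chromosome 2 in build GRCm38.p6, from 91118022 to 91136573) stood at 2464, 2918 and 2532 CPM (counts scaled to a common library total) with the deletion alone and at 3532, 3658 and 3923 in the compound hearts. The compound libraries were all above the deletion libraries, by 1.40 times on average. The edgeR model over all 12 libraries, with group and sex as terms, gave a log2 difference of 0.59 (SE 0.20, unadjusted p = 0.012, adjusted p = 0.862), which did not pass an adjusted p of 0.05. In the authors' deposited table its log2 fold change was 0.51 and its q-value 0.00128. The nontransgenic hearts had 4885, 3521 and 3630.0 CPM, so the compound values lay within their range and the deletion values below it. The hearts with the HRC variant alone, which lack the deletion, had 2897, 3297 and 3848 CPM. The lowest of these lay within the range of the deletion values, so low Mybpc3 was not confined to deletion carriers. Hrc (gene ID 15464, on the plus strand of chromosome 7 in build GRCm38.p6, from 45335269 to 45338973) had 1199, 974 and 1072 CPM with the deletion alone and 1156, 1169.8 and 1229 in the compound hearts. Its values overlapped between the groups, with a log2 difference of 0.17 (SE 0.21). Counts per gene do not show the amino acid change or the 25 bp deletion, so neither gene checks a genotype here.

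Across all genes no difference passed the test. Of 13849 genes tested with edgeR's quasi-likelihood test, 0 had an adjusted p under 0.05 (0.0%), the smallest adjusted p being 0.548. With no adjustment, 794 genes (5.73%) had a p under 0.05, of which 324 (2.34%) were higher and 470 (3.39%) lower in the compound hearts. The adjusted p of the genes named in what follows lies between 0.548 and 0.989 (Myh7) in this model, and is not repeated. Log2 differences from this model are adjusted for sex with all 12 libraries, so they can differ from the ratio of the CPM values printed.

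More genes passed when fewer libraries entered the fit. With only the 6 libraries compared and no sex term, 191 genes (1.43%) passed, 22 higher and 169 (1.27%) lower. Without deletion replicate 3, the only female of its group, 1656 passed, and without each of the others 31 to 312. The fit with 1656 sets male deletion libraries against female compound ones, so group and sex cannot be told apart in it. With all 6 libraries and the sex term, 57 genes (0.427%) passed, 2 higher (0.015%) and 55 lower (0.412%). The sex term there takes up both male libraries, so the differences set the 3 compound libraries against the single female deletion library. All 55 lower genes were nevertheless lower in each compound library than in each deletion library. The authors' deposited table has 716 genes with a q-value under 0.05 among 16882 with a value (4.24%), 246 higher and 470 lower. DESeq2 gave 762 on the same 6 libraries with no sex term, and 7 (0.0457%) with all 12 libraries and sex, 4 higher (0.0261%) and 3 lower (0.0196%). Over all genes tested, 1589 (11.5%) were higher and 1894 (13.7%) lower in all 3 compound libraries than in all 3 deletion libraries, called not overlapping in what follows. By sign alone, 52.2% of all genes were higher and 47.8% lower.

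The gene with the smallest p was Cdh23 (gene ID 22295, on the plus strand of chromosome 10 in build GRCm38.p6, from 60302748 to 60696513), which encodes cadherin 23, an adhesion protein best known from the hair cells of the inner ear. It stood at 8.46, 6.47 and 5.58 CPM with the deletion alone and 13.5, 12.96 and 13.1 in the compound hearts, with no overlap. The log2 difference in the model was 1.34 (SE 0.22, unadjusted p = 3.96e-05), and 0.97 in the authors' deposited table. DESeq2 with group and sex called it, at an adjusted p of 0.00117. Myom2, a myomesin of the sarcomeric M-band, had 806, 619 and 723 CPM against 1343, 1324 and 1189, again with no overlap. Its log2 difference was 0.83 (SE 0.20), with a DESeq2 adjusted p of 0.012. Kdr, the main receptor for vascular endothelial growth factor, was higher, at 105, 104 and 116 against 178, 205 and 146 CPM. Klf11, a zinc finger transcription factor, had 12.9, 12.2 and 10.4 against 23.9, 18.2 and 15.8 CPM. Efr3b, which anchors a lipid kinase at the plasma membrane, had 12.4, 13.5 and 11.6 against 19.1, 18.2 and 16.6. The histamine receptor gene Hrh2 was at 2.40, 3.74 and 0.691 against 3.26, 3.76 and 3.02 CPM, so its groups overlapped. Tagap, another of the higher genes with the smallest p, belongs to a segment of chromosome 17 described at the end.

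Of the 8 lower genes with the smallest p, 3 encode secreted matrix or growth proteins of connective tissue. Aspn, the proteoglycan asporin, had 41.2, 41.4 and 49.00 CPM with the deletion alone and 28.03, 26.1 and 32.2 in the compound hearts (log2 difference -0.76, SE 0.16). Spon1, the matrix protein spondin, had 46.3, 50.5 and 47.03 against 30.7, 24.2 and 23.2 CPM (-0.93, SE 0.20). Igf2, a growth factor made by stromal cells, had 88.8, 76.4 and 129.5 against 58.6, 64.8 and 35.7 CPM (-1.17, SE 0.26). None of these overlapped between the groups. Angptl7, a secreted angiopoietin-like protein, had 7.77, 3.74 and 9.46 against 1.49, 1.18 and 1.62 CPM. It fell by 2.72 on the log2 scale in the fit with the 6 libraries and sex, and passed there with an adjusted p of 0.0175 and in DESeq2 over all libraries with 0.012. Slc43a3, a purine transporter, had 91.5, 105 and 125 against 73.5, 62.4 and 85.8 CPM and passed in DESeq2 over all libraries with 0.012. Csdc2, which encodes an RNA-binding protein, overlapped between groups, at 161, 124 and 172 against 128, 87.1 and 98.5 CPM. Ddit4 and Gadd45g, the remaining pair, are stress genes described with the glucocorticoid-induced genes.

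Atrial muscle genes were lower by sign in the compound hearts nearly throughout. Of 23 tested markers, 22 were lower by sign and 20 were lower with no overlap, against 13.7% of all genes. The median log2 difference of the markers was -1.52, against 0.01 for all genes. Their summed level was 6648 to 10328 CPM with the deletion alone and 1831 to 2584 in the compound hearts. In this model 11 of them had an unadjusted p under 0.05 as lower, against 3.39% of all genes, and 0 passed after adjustment. Of them, 6 passed in the fit with the 6 libraries and sex, where 0.412% of all genes passed as lower, and 17 had a q-value under 0.05 in the authors' deposited table, against 2.78% of its genes as lower. Fewer cells of a type and less RNA per cell cannot be told apart in whole tissue.

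Nppa, which encodes atrial natriuretic peptide, was chosen to be shown with its promoter because T-box and NK2 homeobox factors are known to act there. The 250 bases before its RefSeq start (GRCm38.p6, chr4:148000472-148000721, plus strand) are given 5′ to 3′, with capitals marking matches to the T-box site AGGTGTNA and the NK2 site TNAAGTG on either strand.
Nppa promoter: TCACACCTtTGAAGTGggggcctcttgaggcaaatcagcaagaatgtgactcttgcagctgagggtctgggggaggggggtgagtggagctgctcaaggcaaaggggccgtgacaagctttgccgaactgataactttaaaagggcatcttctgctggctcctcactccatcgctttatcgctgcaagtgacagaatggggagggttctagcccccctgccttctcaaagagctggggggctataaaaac
Such a T-box match is in 1.94% of the 10964 promoters of tested genes that RefSeq's table holds, and in 1 of 17 atrial ones, which is Nppa's. An NK2 match is in 7.42% of them, and in the same 1 of 17. These letters are a description and not a measured site.

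Nppa (gene ID 230899, on the plus strand of chromosome 4 in build GRCm38.p6, from 148000722 to 148002074) stood at 3652, 1474 and 3095 CPM with the deletion alone and at 108, 133 and 254 in the compound hearts. The lowest deletion library was far above the highest compound one, and the mean was 16.6 times higher with the deletion alone. The log2 difference was -4.16 (SE 1.19, unadjusted p = 0.00877). Myl7, the atrial regulatory light chain of myosin, had 834, 669 and 679 CPM against 6.97, 1.12 and 59.6. Myl4, the atrial essential light chain, had 1166, 873 and 905 against 13.99, 4.15 and 80.02. Both light chains were low in every compound library but varied widely among them, with compound replicate 3 highest. Sln, the atrial SERCA inhibitor sarcolipin, had 349, 312 and 274 against 2.21, 0.337 and 25.7 CPM, and Mybphl, a relative of myosin-binding protein C in atrial muscle, had 214, 188 and 235 against 2.05, 0.898 and 23.6. Compound replicate 3 was again the highest of its group for both. Dkk3, a secreted protein of atrial muscle, had 226, 187 and 246 against 11.9, 4.60 and 13.4 CPM.

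Other atrial genes differed less but more evenly. Stard10, a lipid transfer protein, had 237, 209 and 208 CPM with the deletion alone and 44.6, 40.3 and 50.9 in the compound hearts, a mean 4.82 times higher with the deletion alone, and passed with the 6 libraries and sex (adjusted p = 0.000371). Gja5, the connexin of atria and conduction fibres, had 37.1, 24.04 and 40.1 against 13.9, 12.6 and 10.9 CPM and passed there too (adjusted p = 0.0129). The transcription factor genes Tbx5 and Nr2f2 help to set atrial identity. Tbx5 had 119, 80.99 and 139.8 against 55.8, 61.95 and 67.6 CPM, and Nr2f2 37.7, 31.9 and 39.4 against 21.5, 20.5 and 21.2. Their adjusted p-values in the same edgeR fit were 0.039 and 0.0485. Pam, which amidates peptides and is abundant in atrial granules, had 1676, 1068 and 1708 against 590.1, 536 and 746 CPM (adjusted p = 0.0446). Nr2f1, a nuclear receptor related to Nr2f2, had 8.27, 5.77 and 7.65 against 3.70, 4.43 and 4.47 CPM and the smallest unadjusted p of the atrial list in the 12-library model, 0.00797. The gene with the smallest adjusted p in the fit with the 6 libraries and sex, 2.13e-05, was Sbk3 (gene ID 381835, on the minus strand of chromosome 7 in build GRCm38.p6, from 4965247 to 4983395), a kinase gene outside the marker list that was chosen after its values were seen. It had 300.2, 199 and 289 CPM against 18.2, 18.7 and 20.1, a mean 13.8 times higher with the deletion alone.

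**Figure D1:**
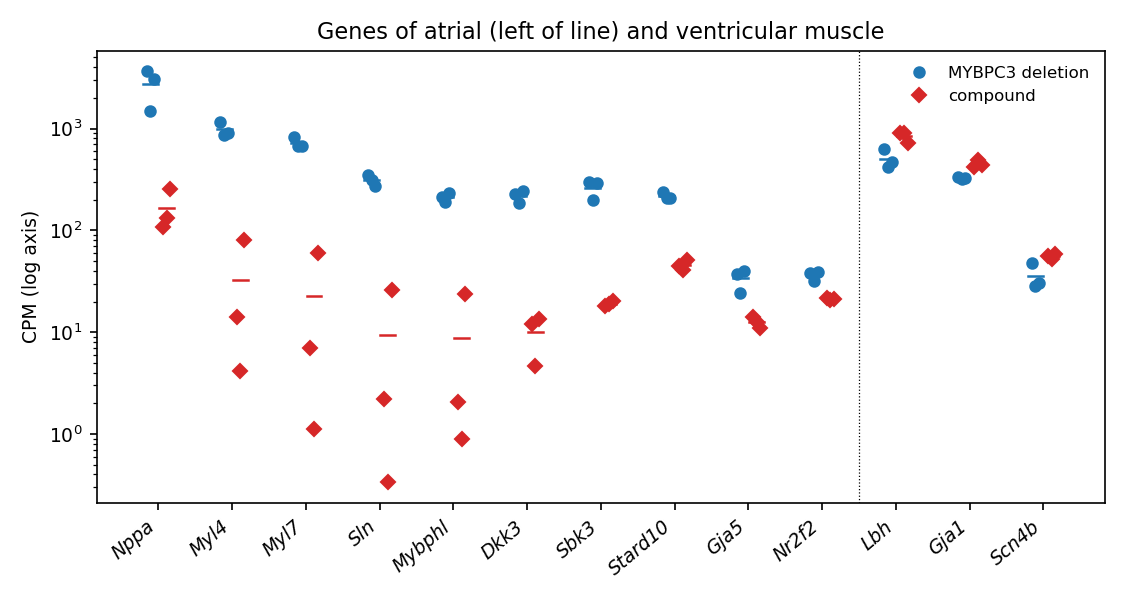
CPM (log axis) of 10 genes of atrial muscle or chosen with them and 3 genes of ventricular muscle, in 3 MYBPC3 deletion and 3 compound libraries; each point is a library and each bar the group mean. Nppa was 3652, 1474 and 3095 with the deletion alone and 108, 133 and 254 in the compound hearts, while Lbh, Gja1 and Scn4b were higher in the compound hearts.

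Ventricular muscle markers leaned the other way. Of 17 tested, 14 were higher by sign and 8 were higher with no overlap, against 11.5% of all genes. The median log2 difference was 0.31. None passed in the 12-library model, and 6 had a q-value under 0.05 in the authors' deposited table, where 1.46% of all genes did as higher. Lbh, a transcription cofactor, had 628, 417 and 475 CPM with the deletion alone and 897, 914 and 724 in the compound hearts. Gja1, the main ventricular connexin, had 336, 320.0 and 327 against 417, 492 and 436, and Scn4b, a sodium channel beta subunit, 47.4, 28.6 and 30.6 against 56.6, 52.02 and 58.2. Irx5, a homeobox gene of the ventricular wall, had 15.9, 15.3 and 17.1 against 31.2, 25.9 and 23.8 CPM. These 4 genes did not overlap. The summed level of the list, 24803 to 35171 CPM with the deletion alone and 30582 to 31759 in the compound hearts, did overlap. Conduction tissue markers were lower by sign in 10 of 12, with a median of -1.13. With no overlap 6 were lower, against 13.7% of all genes. The list shares members such as Cacna1d and Gja5 with the atrial one.

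Adding the atrial level of each library to the model left 0 genes passing and 329 with an unadjusted p under 0.05. It brought the atrial median to 0.09, as its construction requires, and the ventricular one to 0.06. Of the 57 genes that passed with the 6 libraries and sex, 37 then had a log2 difference within 0.5 of zero. Since group is a term of this model too, its slope on the atrial level comes from differences within groups, of which that of HRC variant replicate 3 from its group is the largest. The model was not run without that library, and a value near zero under it does not show that the HRC variant left a gene unaffected. 

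**Figure D2:**
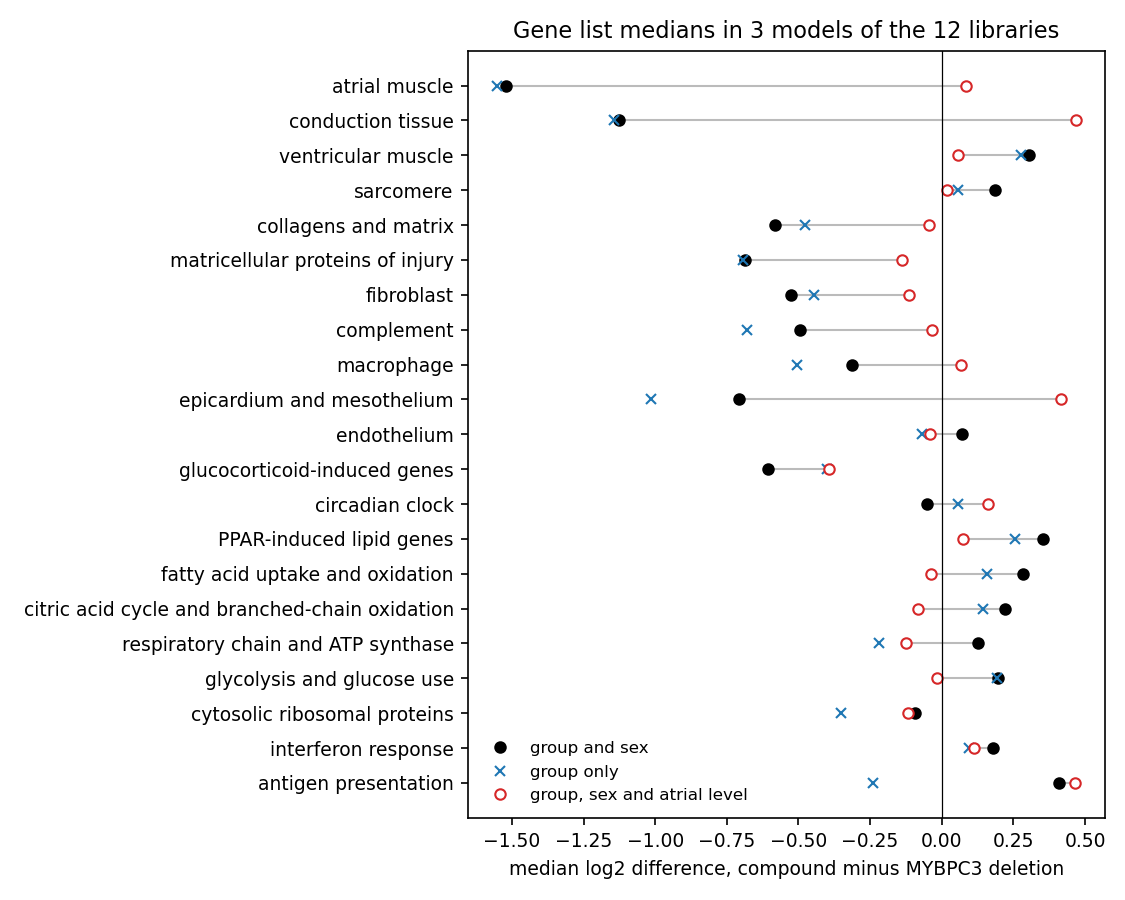
Median log2 difference (compound minus MYBPC3 deletion) of 21 gene lists in 3 models of the 12 libraries: with group and sex (black), with group alone (blue crosses) and with the atrial level added (open red). The matrix, complement and fatty acid medians lie near 0 with the atrial level added, and the glucocorticoid-induced median stays at -0.39.

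Collagen and matrix genes leaned lower in the compound hearts. Of 42 tested, 37 were lower by sign, against 47.8% of all genes, and 21 were lower with no overlap, against 13.7%. The median log2 difference was -0.58. In this model 16 had an unadjusted p under 0.05 as lower, against 3.39% of all genes, and none passed. With the 6 libraries and sex, 4 passed as lower, against 0.412% of all genes. A q-value under 0.05 as lower was found for 17 in the authors' deposited table, against 2.78% of its genes. Their summed level was 7865 to 8432 CPM with the deletion alone and 5440.1 to 6222 in the compound hearts, with no overlap. Mfap5, a microfibril protein, had 38.1, 51.2 and 49.1 CPM with the deletion alone and 25.4, 24.1 and 22.9 in the compound hearts (log2 difference -0.995, SE 0.31). Eln, elastin, had 112, 82.6 and 53.5 against 37.5, 30.4 and 17.95 CPM (-1.15, SE 0.35). Both groups varied for elastin, but the lowest deletion library remained above the highest compound one. The chains of type I collagen did not overlap: Col1a1 had 266, 344 and 293 against 205, 186 and 144 CPM, and Col1a2 230.0, 245 and 244 against 159, 154 and 139. Col5a2, a type V collagen chain, had 36.7, 37.3 and 43.8 against 28.3, 21.04 and 23.5. Col3a1, the type III chain, overlapped, at 313, 417 and 423 against 312, 352 and 182 CPM.

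Proteins secreted by activated fibroblasts showed the same direction by sign. Of 20 matricellular genes of injury, 18 were lower, with a median of -0.69. Postn, periostin, had 110.3, 75.9 and 80.4 CPM with the deletion alone and 37.8, 37.99 and 41.9 in the compound hearts, a mean 2.26 times higher with the deletion alone (log2 difference -1.27, SE 0.37). Sparc, a collagen-binding protein, had 626, 832 and 843 against 497, 469 and 467 CPM, and Fn1, fibronectin, 72.7, 80.2 and 101.2 against 62.5, 55.3 and 61.2. Ctgf had 151, 89.7 and 72.2 against 67.9, 63.9 and 60.7 CPM, the groups lying close to each other. Fibroblast markers were lower by sign in 19 of 19, with a median of -0.53; Fbln1, fibulin 1, had 269, 269.6 and 361 against 208, 171 and 196 CPM. A further pair of genes of this kind were chosen after their values were seen. Mgp, the matrix inhibitor of calcification, had 422, 431 and 392 against 215, 194 and 213 CPM, and Mfap4, a microfibril protein, 97.6, 88.5 and 95.5 against 37.3, 24.5 and 28.4. Both passed with the 6 libraries and sex, at adjusted p-values of 0.0258 and 0.00611. With the atrial level in the model the medians of the matrix, matricellular and fibroblast lists were -0.05, -0.14 and -0.11. HRC variant replicate 3, low in atrial transcripts, was also the lowest of its group in all 3 lists.

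Complement genes were lower by sign in 19 of 19 tested, with a median of -0.50. Of them, 12 did not overlap, against 13.7% of all genes lower in this way. C1qb, a subunit of the recognition protein C1q made by macrophages, had 92.03, 131 and 95.6 CPM with the deletion alone and 54.6, 69.2 and 50.4 in the compound hearts (log2 difference -0.65, SE 0.28). Cfp, properdin, had 13.6, 22.3 and 14.6 against 8.57, 9.99 and 6.10. Serping1, the C1 inhibitor, stood at 298 ± 25.2 CPM with the deletion alone and 203 ± 2.27 in the compound hearts (SD, n = 3). All 3 were lower in every compound library. Macrophage markers were lower by sign in 19 of 22, 11 with no overlap against 13.7% of all genes, with a median of -0.31. Without deletion replicate 3 that median was 0.05, so its direction turned, and without nontransgenic replicate 3 it was -0.49. Lyve1, which marks resident macrophages, had 25.4, 25.4 and 37.9 against 13.8, 20.7 and 18.2 CPM, and Folr2, another such marker, 16.2, 17.8 and 17.9 against 10.7, 11.95 and 9.12. F13a1, a clotting factor subunit made by macrophages, had 49.3, 52.96 and 62.8 against 44.01, 46.9 and 48.7. None of the 3 overlapped.

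Markers of the epicardium were lower by sign in 12 of 15, with a median of -0.71. Their summed level was 138 to 161 CPM with the deletion alone and 65.8 to 96.4 in the compound hearts. Upk1b, a uroplakin of the mesothelial surface, had 9.16, 7.80 and 5.85 against 2.21, 2.58 and 2.46 CPM, Krt19, a keratin, 6.76, 11.04 and 4.36 against 1.55, 1.40 and 2.18, and Gpm6a, a membrane glycoprotein, 16.5, 14.02 and 14.7 against 7.80, 5.84 and 8.11. Krt8, another keratin, was near the detection limit at 1.96, 4.00 and 1.70 against 0.774, 0.337 and 0.839 CPM. None of these 4 overlapped. Of endothelial markers, 12 of 20 were higher by sign and 8 lower, with a median of 0.07. With the atrial level in the model the complement, macrophage and epicardial medians were -0.03, 0.07 and 0.42.

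**Figure D3:**
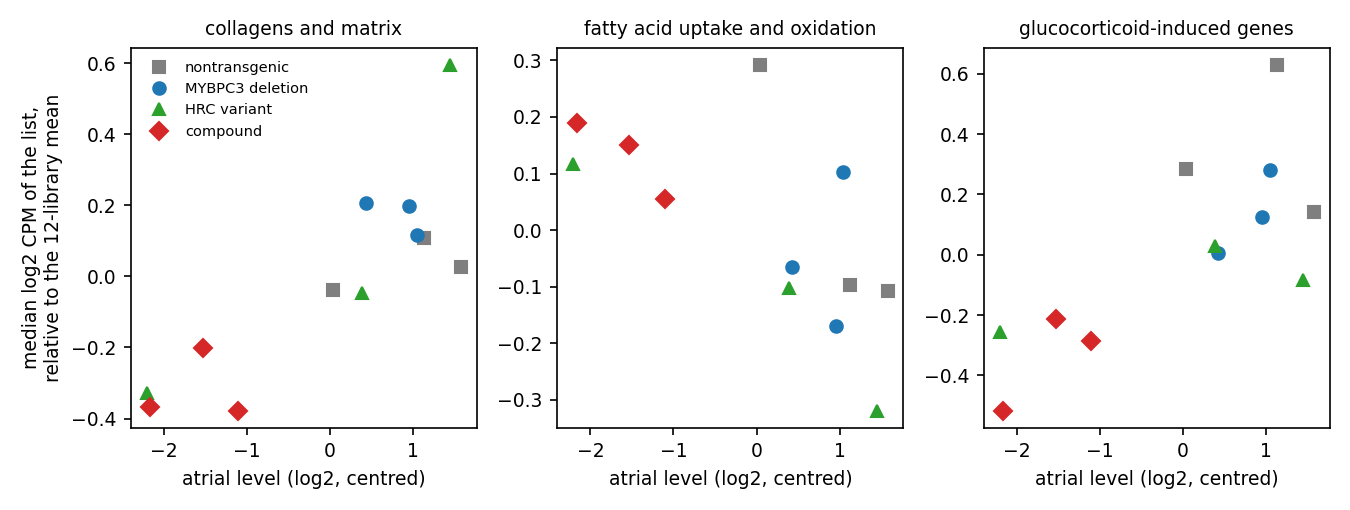
Median log2 CPM of 3 gene lists in each of the 12 libraries, relative to the mean over libraries (vertical axis), against the atrial level of the library (horizontal axis, log2, centred); symbols mark the 4 groups. The 3 compound libraries and HRC variant replicate 3, at -2.21, sit together on the left, low for matrix genes and at or above 0 for fatty acid genes. Nontransgenic replicate 1, the highest for fatty acid genes at 0.29, and deletion replicate 1, at 0.10, are also above 0 and lie outside that cluster.

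Glucocorticoid-induced genes, which the stress hormone switches on through its nuclear receptor, were mostly lower by sign. Of 21 tested, 18 were lower by sign, 12 with an unadjusted p under 0.05, against 3.39% of all genes. With no overlap 8 were lower, against 13.7% of all genes. The median log2 difference was -0.61, and -0.39 with the atrial level in the model. None passed in the 12-library model, and 4 had a q-value under 0.05 as lower in the authors' deposited table, against 2.78% of its genes. Ddit4, which restrains growth signalling through mTOR, had 29.1, 20.2 and 26.04 CPM with the deletion alone and 17.1, 11.00 and 14.1 in the compound hearts (log2 difference -1.16, SE 0.25). Gadd45g, a stress and growth arrest gene, had 11.1, 11.7 and 9.03 against 5.14, 4.94 and 5.14 CPM (-0.84, SE 0.19). Neither overlapped. Cebpd, a transcription factor of the acute phase, had 48.4, 33.04 and 21.5 against 12.3, 11.95 and 9.28 CPM. Arrdc2, an arrestin family gene, overlapped, at 9.73, 7.55 and 14.1 against 6.97, 6.29 and 7.72 CPM (-1.17, SE 0.30). Its log2 fold change in the authors' deposited table was -0.57. Tsc22d3, which encodes the leucine zipper GILZ and is often used as a marker of receptor activity, overlapped at 107, 74.02 and 103 against 73.9, 67.5 and 77.4, and so did Fkbp5, a chaperone of the receptor, at 16.6, 12.4 and 17.6 against 13.3, 10.9 and 15.99. Per1, also a clock gene, overlapped at 112, 60.95 and 106 against 63.97, 45.1 and 75.3. The other 3 members were higher by sign, Dusp1, Pdk4 and Angptl4, and all 3 overlapped between groups.

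The metallothioneins, small zinc-binding proteins that glucocorticoids and metals induce, were shown with their promoters because the genes lie next to each other and differed in size of change. The 250 bases before the RefSeq start of each (GRCm38.p6, chr8:94172368-94172617 for Mt2 and chr8:94178839-94179088 for Mt1, both plus strand) follow, 5′ to 3′, with capitals marking matches to the metal response element, TGCACNC or TGCGCNC, on either strand.
Mt2 promoter: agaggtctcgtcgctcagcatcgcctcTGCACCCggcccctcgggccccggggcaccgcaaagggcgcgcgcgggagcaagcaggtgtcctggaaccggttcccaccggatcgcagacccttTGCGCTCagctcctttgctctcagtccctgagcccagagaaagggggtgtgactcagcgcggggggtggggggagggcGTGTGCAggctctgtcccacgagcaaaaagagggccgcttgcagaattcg
Mt1 promoter: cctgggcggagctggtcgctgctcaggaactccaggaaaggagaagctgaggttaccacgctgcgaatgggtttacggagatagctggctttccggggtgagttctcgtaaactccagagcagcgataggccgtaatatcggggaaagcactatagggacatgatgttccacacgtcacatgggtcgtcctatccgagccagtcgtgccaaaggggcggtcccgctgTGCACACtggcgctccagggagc
Mt2 held 3 matches and Mt1 held 1, and 30.1% of the 10964 promoters hold at least 1. Only the 250 bases before 1 RefSeq start per gene were searched, and bases after that start were not. These counts depend on the start used and do not compare the full promoters of the genes. Mt2 had 29.1, 46.05 and 29.02 CPM with the deletion alone and 13.9, 11.4 and 10.5 in the compound hearts, with no overlap (log2 difference -1.67, SE 0.44). In the authors' deposited table its q-value was 3.10e-08. Mt1 had 102, 171 and 105 against 93.2, 76.9 and 90.1 CPM (-0.43, SE 0.26), with no overlap but a narrow gap. Mt3, another metallothionein chosen after its values were seen, had 2.78, 4.00 and 3.88 against 0.387, 0.617 and 0.503 CPM and passed with the 6 libraries and sex (adjusted p = 0.0314).

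**Figure D4:**
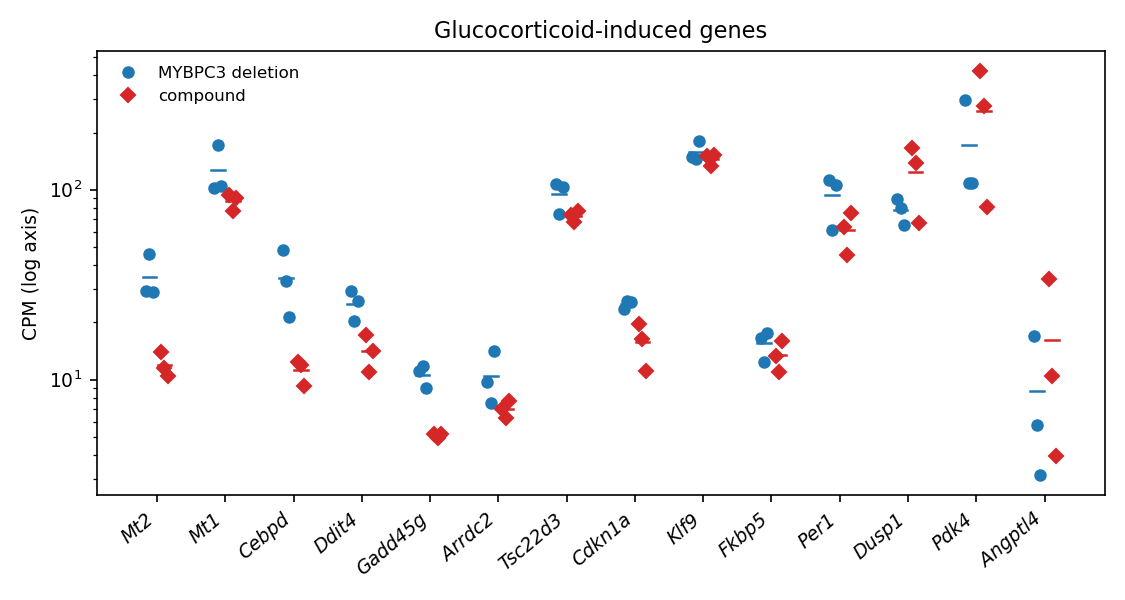
CPM (log axis) of 14 glucocorticoid-induced genes in 3 MYBPC3 deletion and 3 compound libraries; each point is a library and each bar the group mean. Mt2, Cebpd, Ddit4 and Gadd45g show no overlap, whereas Fkbp5, Per1, Dusp1, Pdk4 and Angptl4 do.

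Genes of the circadian clock showed no common lean, with 8 of 21 higher by sign, 13 lower and a median of -0.05. That median turned to 0.06 with no sex term, 0.16 with the atrial level and 0.014 without deletion replicate 3. Cry2, a repressor of the clock, had 38.1, 31.6 and 47.6 CPM with the deletion alone and 55.4, 55.5 and 60.5 in the compound hearts, with no overlap. Its relative Cry1 overlapped, at 9.28, 7.23 and 13.3 against 7.74, 8.42 and 11.4 CPM. The sources used here do not give the time of day at which hearts were taken.

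Genes of fuel use were slightly higher by sign in the compound hearts. All 28 tested genes of fatty acid uptake and oxidation had a positive log2 difference, with a median of 0.28. Of them, 8 did not overlap, against 11.5% of all genes higher in this way. An unadjusted p under 0.05 was found for 3, against 2.34% of all genes as higher. All 27 genes of the citric acid cycle and of branched-chain amino acid oxidation also had a positive log2 difference. Their median was 0.22 and 10 did not overlap, beside the same 11.5%. None passed in the 12-library model. Hadhb, a subunit of the mitochondrial trifunctional protein of fatty acid oxidation, had 1795, 1533 and 1564 CPM with the deletion alone and 2225, 2323 and 2087 in the compound hearts (log2 difference 0.52, SE 0.22). Acacb, which makes the malonyl-CoA that limits fatty acid entry into mitochondria, had 282, 233 and 346 against 514, 433 and 441 CPM. Neither overlapped, and in the authors' deposited table their q-values were 0.00434 and 0.00202. Decr1, which handles unsaturated fatty acids, overlapped at 426, 378 and 344 against 423, 444 and 400.4 CPM. Eci1, of the same step, did so too, at 327, 357 and 231 against 332, 326 and 278. Mccc1, a carboxylase of leucine breakdown, did not overlap, at 98.8, 69.8 and 94.97 against 116, 124 and 116 CPM, while Bckdha, a subunit of the branched-chain dehydrogenase, did, at 464, 477 and 307 against 468, 475 and 383. Bcat2, the first enzyme of that pathway, had 151, 165 and 119.7 against 166, 176 and 149.6, and Idh2, a mitochondrial isocitrate dehydrogenase, 2286, 2330.3 and 1681 against 2297, 2559 and 2234. Deletion replicate 3 was the lowest of its group for Decr1, Eci1, Bckdha, Bcat2 and Idh2. Genes induced by PPAR receptors had a median of 0.35, and of 0.07 with the atrial level in the model. Plin2, a lipid droplet coat protein, had 63.9, 57.7 and 51.2 against 70.7, 67.7 and 58.7 CPM, and Acot2, a mitochondrial thioesterase, 108, 90.1 and 83.97 against 127, 119 and 89.2, both overlapping. Ucp3, a mitochondrial carrier, varied as much within as between groups, at 87.7, 44.3 and 40.5 against 143, 105 and 61.9 CPM. Its relative Ucp2, the single member lower by sign, had 259.9, 253 and 304 against 139, 127 and 106 CPM and passed with the 6 libraries and sex (adjusted p = 0.00878).

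In glycolysis and glucose use, 28 of 32 genes were higher by sign, with a median of 0.20. Hk2, hexokinase 2, had 201, 221 and 245 CPM with the deletion alone and 286, 296 and 354 in the compound hearts, and Pfkm, the muscle phosphofructokinase, 884, 784 and 869.8 against 1026, 1041 and 1030.1. Neither overlapped. Pfkfb1, a regulator of glycolytic flux, and Ldhb, a lactate dehydrogenase subunit, did, at 23.8, 22.5 and 13.2 against 25.3, 27.4 and 23.3 and 1997, 2301 and 1603 against 2090.3, 2287 and 2035 CPM. For the respiratory chain and ATP synthase the sign depended on the sex term: the median of 55 genes was 0.13 with it and -0.22 without it. Their summed level was 47780.0 to 70067 CPM with the deletion alone and 50914 to 56507 in the compound hearts, and the highest value was that of a male, deletion replicate 2. Atp5a1, the alpha subunit of ATP synthase, had 3891, 3613 and 4281 against 5063, 5004 and 4746 CPM, with no overlap. Sdha, the flavoprotein of complex II, did not overlap either, at 1257, 1012 and 1272 against 1489, 1524 and 1498. Uqcrc1, of complex III, and Ndufs4, of complex I, overlapped, at 1717, 2116 and 1520.4 against 1908, 1926 and 1714 and 184, 201 and 145 against 160.4, 196 and 174 CPM. With the atrial level in the model, the medians of the fatty acid, citric acid cycle, respiratory chain and glycolysis lists were -0.04, -0.08, -0.13 and -0.01.

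Genes around the calcium store in which HRC resides showed no common lean. The calcium release unit, which holds the ryanodine receptor and its partners, had 8 of 18 genes higher and 10 lower by sign, with a median of -0.02. Ryr2, the release channel, had 777, 666 and 1159 CPM with the deletion alone and 1327, 1103 and 1381 in the compound hearts. Casq2, the cardiac calcium-binding protein calsequestrin, had 999, 947 and 1088 against 1029, 1132 and 1067 CPM (log2 difference 0.07, SE 0.19). Both overlapped. Its skeletal relative Casq1 had 24.4, 23.4 and 24.5 against 15.4, 9.60 and 8.11 CPM. Among the 18 members only Casq1 had an unadjusted p under 0.05, as lower, against 3.39% of all genes. Calm2, a calmodulin gene, had 128, 116 and 110.0 against 79.4, 104 and 97.5, and Fkbp1b, the small protein bound to the release channel, 1.52, 3.23 and 1.59 against 0.719, 0.730 and 1.51 CPM, neither overlapping. Atp2a2, the SERCA pump, overlapped at 9700.4, 7318 and 14705 against 15314, 14700.0 and 16721 CPM, with a log2 difference of 0.17 (SE 0.25). That difference was 0.56 with no sex term, 0.34 without deletion replicate 3 and 0.0929 without nontransgenic replicate 3, and the authors' deposited table gives a q-value of 0.127 for Atp2a2. Pln, its inhibitor phospholamban, had 7859, 6450.0 and 8099.6 against 9092, 8759 and 9283 CPM (0.17, SE 0.21). Jph2, which holds the sarcoplasmic reticulum to the cell membrane, had 469, 312 and 532 against 634, 562 and 633 CPM. The last 2 did not overlap.

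Calcium channels of the cell surface, through which the trigger for release enters, divided by sign. Of 16 genes of calcium channels and extrusion, 7 were higher and 9 lower by sign (median -0.07, and 0.12 with the atrial level). With no overlap 4 were lower, against 13.7% of all genes, and 2 were higher, against 11.5%. In the edgeR fit with the 6 libraries and sex, 2 passed as lower, against 0.412% of all genes. In the authors' deposited table, a q-value under 0.05 was found for 4 as lower, against 2.78% of its genes. Such a value was found for 1 as higher, against 1.46%. Cacna1h, a T-type calcium channel, had 74.8, 59.5 and 72.97 CPM with the deletion alone and 19.2, 12.96 and 11.3 in the compound hearts (log2 difference -2.43, SE 1.25). Cacna2d2, an auxiliary channel subunit, had 36.3, 28.8 and 29.2 against 6.41, 3.37 and 5.14 CPM (-2.59, SE 1.42). These are the 2 that passed, with adjusted p-values of 0.00394 and 0.00358. Cacna1d, an L-type channel also on the atrial list, had 5.56, 7.04 and 6.54 against 2.99, 1.52 and 2.01 CPM, with no overlap. Cacna1g, another T-type channel, overlapped at 28.99, 25.7 and 49.3 against 40.4, 29.9 and 34.8. HRC variant replicate 3, low in atrial transcripts, had 5.38 CPM of Cacna1h and 3.88 of Cacna2d2, the lowest of its group.

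Of 40 sarcomere genes, 28 were higher by sign, 11 with no overlap against 11.5% of all genes, and the median was 0.19. That median was 0.06 with no sex term and 0.02 with the atrial level. With single libraries left out of the 6-library fit without sex, it ran from -0.0051 to 0.14. Myh6, the alpha myosin heavy chain of the adult mouse heart, had 18527, 18522 and 21464 CPM with the deletion alone and 26389, 25041 and 29686 in the compound hearts (log2 difference 0.38, SE 0.18). Tpm2, a tropomyosin, was lower at 133, 71.9 and 61.4 against 22.004, 20.59 and 32.8 CPM, with no overlap. Myl1, a light chain of skeletal and atrial muscle, had 120.3, 137 and 111 against 29.97, 33.6 and 42.2 CPM and passed with the 6 libraries and sex (adjusted p = 0.00394). Among the fixed markers of a failing heart, Nppb, Myh7, Acta1 and Ankrd1 overlapped. Nppb, B-type natriuretic peptide, had 146, 358 and 86.6 CPM against 87.02, 146 and 126. Myh7, the fetal beta myosin, had 159.9, 128 and 42.2 against 156, 77.6 and 131, Acta1, skeletal actin, 288, 676 and 165 against 151, 172 and 248, and Ankrd1, a stretch-induced titin partner, 1185, 1783 and 598 against 669, 912 and 911. For all 4 the spread among the deletion libraries was wider than the gap between the group means, and deletion replicate 3, the female, was the lowest. The sign of their log2 differences turned with the sex term or the libraries used. Mybpc2, a fast skeletal relative of Mybpc3, did not overlap, at 27.2, 26.8 and 24.3 CPM against 22.1, 19.1 and 23.5, nor did Fhl1, a LIM protein linked to hypertrophy, at 229, 165 and 174 against 163, 154 and 162. The heart failure and stretch list as a whole had a median of 0.03, with 10 of 19 higher by sign. That median turned to -0.28 with no sex term, -0.19 with the atrial level and -0.33 without deletion replicate 3, and was 0.24 without nontransgenic replicate 2.

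Immune genes showed a lean that depended on the model. Antigen presentation genes had a median of 0.41 with the sex term and -0.24 without it. With no overlap 0 of 21 were higher, against 11.5% of all genes. Replicate 2 stood out in both groups: Tap1, a peptide transporter, had 11.9, 29.4 and 14.6 CPM with the deletion alone and 15.1, 38.2 and 15.2 in the compound hearts. Nlrc5, the activator of class I genes, and Ciita, that of class II genes, had 2.40, 5.77 and 3.93 against 3.59, 11.4 and 3.80 and 1.39, 3.87 and 1.54 against 1.38, 3.76 and 2.07 CPM. H2-Q7, a class I gene of a family of close copies and so uncertain, had 7.96, 22.7 and 5.10 against 4.87, 23.1 and 7.83. Irgm1, an interferon-induced GTPase, had 20.5, 26.8 and 26.6 against 27.3, 57.1 and 29.02 CPM, with no overlap and compound replicate 2 the highest. Irf1, a transcription factor, and Oas3, a sensor of double-stranded RNA, overlapped, at 25.01, 28.6 and 23.6 against 27.1, 37.04 and 27.8 and 1.33, 2.28 and 1.54 against 2.16, 3.42 and 2.46. The interferon list as a whole had a median of 0.18, and 4 of 37 genes had an unadjusted p under 0.05 as higher, against 2.34% of all genes. That median was -0.02 in females only.

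The effect of the HRC variant on the nontransgenic background, HRC variant alone against nontransgenic hearts in the same model, shares no library with this comparison but shares its sex term. The medians set side by side, on the deletion background first, were -1.52 and -0.42 for atrial genes, -0.58 and 0.09 for matrix genes, -0.50 and 0.04 for complement and 0.28 and 0.02 for fatty acid genes. For glucocorticoid-induced genes they were -0.61 and -0.65, and for clock genes -0.05 and -0.58. Among these lists, the atrial and glucocorticoid-induced medians were negative on both backgrounds. The clock median was so too in this model, but on the deletion background its sign turned with the sex term, the atrial level or the libraries used. For atrial genes, the median levels per library were 1.15, 0.22 and -1.04 with the HRC variant alone and -0.07, 1.17 and 0.82 in nontransgenic hearts. Only HRC variant replicate 3 was thus below every nontransgenic library. Mt2 had log2 differences of -1.67 and -1.71 on the deletion and nontransgenic backgrounds, Ddit4 -1.16 and -0.56, and Gadd45g -0.84 and 0.04. Igf2 had -1.17 and -0.94. The test of the difference between backgrounds, the interaction term, called 0 of 13849 genes (0.0%) in edgeR, with a smallest adjusted p of 0.160 and 1183 genes (8.54%) with an unadjusted p under 0.05. Without HRC variant replicate 1 it called 5, and limma-voom called 0. For Mybpc3 the interaction was 0.75 on the log2 scale (SE 0.23, adjusted p = 0.517), and for Eln -2.10 (SE 0.41, adjusted p = 0.351). DESeq2 called 51 genes for this term, 47 higher and 4 lower.

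A group of 7 genes near the start of chromosome 17, chosen after their values were seen, had levels that mostly set the deletion libraries apart from the compound ones but did not follow all 4 groups. Rnaset2b (gene ID 68195, from 6978860 to 7013006 in GRCm38.p6, plus strand), which encodes a ribonuclease of the T2 family, had 80.2, 81.6 and 80.7 CPM with the deletion alone and 33.1, 31.8 and 35.2 in the compound hearts. The groups outside the comparison were not uniform: it had 0, 32.4 and 78.1 CPM in the nontransgenic hearts and 37.6, 0 and 0.444 with the HRC variant alone. The 12 libraries thus fell at 3 levels, near 0, from 31.8 to 37.6 and from 78.1 to 81.6 CPM, and the nontransgenic group held 1 library at each.

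Among its neighbours 4 were higher with no overlap. Tagap, a GTPase-activating protein of T cells, had 3.09, 1.52 and 1.33 CPM with the deletion alone and 4.31, 4.88 and 5.09 in the compound hearts. Tmem181a, a membrane protein gene, had 22.7, 24.8 and 30.7 against 43.3, 45.1 and 43.5, and Dynlt1b, a dynein light chain, 15.5, 19.1 and 20.5 against 27.6, 42.3 and 27.6. The unnamed transcript 9030025P20Rik had 1.14, 1.08 and 1.06 against 3.93, 4.32 and 3.58 CPM. Rsph3b, a radial spoke protein gene, was lower in the compound hearts, at 68.97, 64.7 and 57.98 against 45.3, 44.1 and 42.3, while its copy Rsph3a overlapped. Rnaset2b, Rsph3a, Rsph3b and Tagap have close copies nearby, and the sources used here do not say how reads shared by copies were counted, so their values are uncertain. From the first to the last of the 7, 43 genes were tested, of which 13 were higher and 8 lower with no overlap (30.2% and 18.6%, against 11.5% and 13.7% of all genes). Since the span was chosen for its members, this is a description. What these levels follow was not tested.

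**Figure D5:**
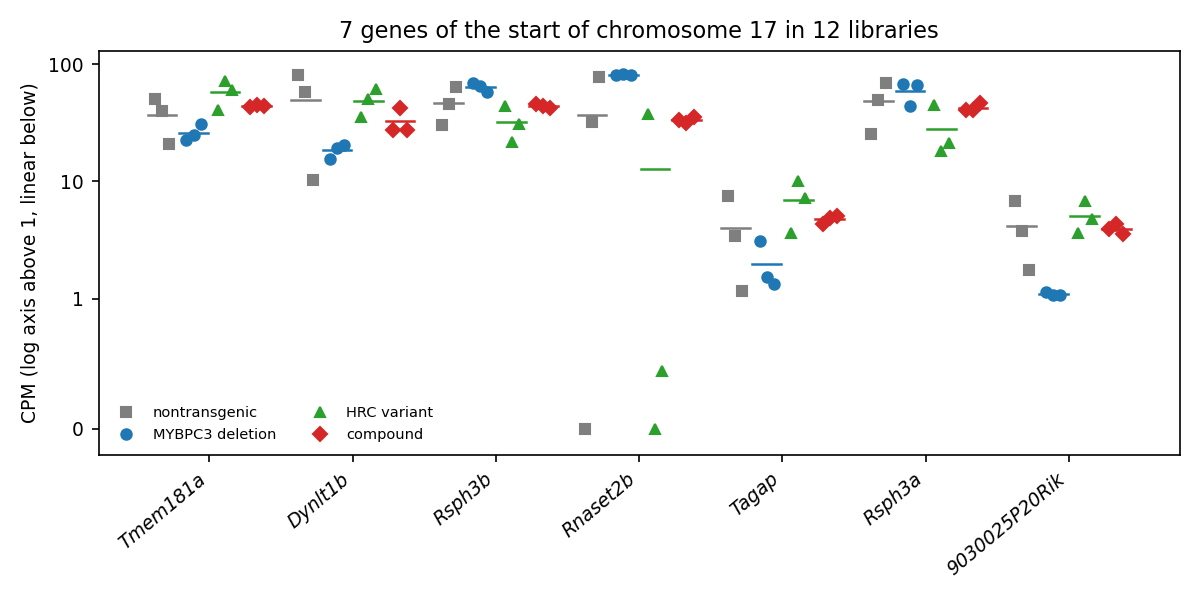
CPM of 7 genes of chromosome 17 in all 12 libraries, 3 per group (log axis above 1, linear below); each point is a library and each bar the group mean. Rnaset2b takes 3 separate levels among the libraries, and within the MYBPC3 deletion and compound groups its points nearly coincide.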

How the data were processed

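Poly(A)-selected RNA of hearts was sequenced on DNA nanoball arrays, per the labels' protocols. The authors deposited 1 table with an estimated count, an FPKM value and a TPM value (scaled by transcript length and library) for each gene and library, and log2 fold changes with q-values for each pair of groups. HISAT, Bowtie2, DESeq2 and build GRCm38.p6 are named in the submitters' processing notes; the counting tool is not named in the sources used here. Of the counts, 94.3% were whole; they were rounded. Of 17380 lines, 1 held no values and was dropped, 25 symbols turned into dates were restored from gene identifiers, and 17267 of 17379 identifiers matched RefSeq's table of the same build. The FPKM values were not used.

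The main test was edgeR 4.0.16 (R 4.3.3), quasi-likelihood with TMM scaling, all 12 libraries, group and sex as terms, Benjamini-Hochberg adjustment at 0.05, and filterByExpr with a minimum count of 10 (13849 genes kept, 3530 removed, 7 residual degrees of freedom). DESeq2 1.42.0 and limma 3.58.1 were alternatives, beside other filters, scalings, terms and libraries left out. The scripts were tested on simulated data. The atrial level is the mean, and the level of any other list the median, of log2 CPM with a prior count of 2, centred on the 12 libraries. Nothing in the labels says whether libraries of a group share a litter or culture, so the spread behind each p-value is that of these hearts and may be partly technical.

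Named genes were Mybpc3, Hrc, fixed heart failure markers, up to 4 genes of smallest p in each list, and, since fewer than 10 genes passed, the 8 higher and 8 lower of smallest p with a mean log2 CPM of at least 1 and no clone name; a few genes that the rule names are not reported here. Sbk3, Stard10, Myl7, Mybphl, Dkk3, Pam, Mgp, Mfap4, Cebpd, Tsc22d3, Fkbp5, Mt1, Mt3, Pdk4, Angptl4 and the chromosome 17 genes outside that rule were chosen after their values were seen. The members and lists were chosen with earlier results of these data known. Promoters are from RefSeq (GRCm38.p6), of which 10964 matched a tested gene.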

Additional observations from a re-analysis of the deposited data

How the results depend on the processing

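Of the compound against deletion calls, no gene passed (0) in edgeR with no sex term (2004 with an unadjusted p under 0.05), in females only (493), with the replicate block (946), with the atrial level (329), with DESeq2 size factors, with no filter, with a minimum count of 50, with limma-voom, and without each of the 12 libraries in turn. Counts were higher with 2 other tools over all libraries, 7 with DESeq2 and 4 with edgeR's likelihood ratio test, and with only the 6 libraries compared, 57 with and 191 without the sex term and 762 in DESeq2 without it, the last chosen after the authors' calls were seen. Leaving out single libraries of those 6, also chosen after the data were seen, gave 31 to 1656 calls, against 0 from the 12-library model. The 1656 came without the only female deletion library, where group and sex cannot be told apart. The interaction called 1 gene with the replicate block (Eln), 51 in DESeq2, 14 by the likelihood ratio test and 0 to 5 when single libraries were left out. The cause of these differences in count was not tested. Same-numbered deletion and compound libraries had correlations of their deviations of 0.037, 0.135 and 0.118. Each library correlated best with its own number, but the labels do not tie numbers to a litter or day, so they were not taken as pairs.

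Of 134 named genes under 31 settings each, 30 turned sign in at least 1, in 83 gene and setting pairs; only values with a turned sign are given next, as log2 differences. With the atrial level they were Hrc -0.15, Jph2 -0.0417, Cacna1d 0.37, Cacna1h 0.44, Cacna1g 0.087, Cacna2d2 0.34, Myl4 0.60, Ldhb -0.0226, Atp5a1 -0.00547, Uqcrc1 -0.0197, Upk1b 0.29, F13a1 0.0458, Nppb -0.51, Myh7 0.38, Pln -0.12, Casq2 -0.20, Myl7 0.93, Sln 0.47 and Mybphl 0.53. With no sex term they were Cacna1g 0.0127, Nppb -0.72, Myh7 0.14 and Ankrd1 -0.52. With only the groups compared they were Myh7 1.52, Acta1 0.20 and Casq2 -0.0184 with the sex term, and Cacna1g 0.00802, H2-Q7 -0.000864, Nppb -0.72, Myh7 0.14 and Ankrd1 -0.52 without it. In females only they were Myh7 1.52, Acta1 0.20 and Casq2 -0.024. In DESeq2 on the groups compared they were Cacna1g 0.0304, Nppb -0.70, Myh7 0.16 and Ankrd1 -0.50, and in limma-voom Myh7 0.25. When single libraries were left out, in the 12-library or the 6-library fit, the ranges of genes that turned were Cacna1g -0.64 to 0.35, Cry1 -0.71 to 0.15, Wee1 -1.05 to 0.0465, Eci1 -0.14 to 0.60, Ldhb -0.0101 to 0.49, Bckdha -0.0914 to 0.61, Ndufs4 -0.12 to 0.37, Uqcrc1 -0.0541 to 0.41, H2-Q7 -0.90 to 1.78, Nlrc5 -0.12 to 2.07, Ciita -0.38 to 2.72, Tap1 -0.29 to 1.39, Nppb -1.08 to 0.53, Myh7 -2.13 to 1.54, Acta1 -1.97 to 0.22, Ankrd1 -0.84 to 0.48 and Casq2 -0.00695 to 0.25. The cause was not tested. Of 1023 pairs of a list median and a setting, 195 moved by more than 1 SD of the replicates, 24 of them with the atrial level and 16 with no sex term. The main model had 7 residual degrees of freedom and a biological coefficient of variation of 21.5%, and the size of change it can detect is not given here.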

Other observations

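Genes of protein synthesis and early response were not described so far. Of 45 cytosolic ribosomal protein genes, 37 were lower by sign in the compound hearts, with a median log2 difference of -0.09, -0.35 with no sex term, 0.0056 in females only and 0.022 without nontransgenic replicate 3, so its direction turned. Rpl3, of the large subunit, had 235, 257 and 196 CPM with the deletion alone and 136, 153 and 158 in the compound hearts, with no overlap. Rpl10 had 521, 536 and 419.7 against 373, 404 and 382 and Rps16 333, 439 and 264 against 216, 252 and 226 CPM, neither overlapping, while Rps4x overlapped at 394, 431 and 327 against 274, 333 and 293. Ribosomal protein transcripts are short, and in the shortest of 5 length classes of genes the share lower in all 3 compound libraries was 20.58%; its part in the result was not tested. Ribosomal genes have many processed copies, so their counts are uncertain. Immediate early genes had a median of 0.07 and split by library within the compound group: Fos, a subunit of the AP-1 transcription factor, had 4.23, 3.49 and 0.903 against 10.4, 8.92 and 1.29 CPM, and Egr1, a zinc finger factor, 27.03, 16.7 and 14.8 against 58.99, 50.8 and 16.3. Compound replicate 3 was within the range of the deletion libraries for both, and the other compound libraries were above it. Maff, a small basic leucine zipper factor, went the other way with no overlap, at 8.53, 6.85 and 5.95 against 4.04, 4.38 and 3.80 CPM.

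Among other cell types, skeletal muscle markers were lower by sign in 10 of 15 (median -0.58), with Tnni1, the slow skeletal troponin I, at 1.39, 3.93 and 2.07 against 0.387, 0.617 and 0.336 CPM, and Cacna1s, the skeletal calcium channel, higher at 26.5, 18.96 and 13.7 against 33.7, 31.8 and 30.3. Schwann cell and nerve markers were lower by sign in 12 of 13 (median -0.44). Smooth muscle and pericyte markers had a median of 0.05 (turned to -0.08 with the atrial level), cell cycle genes -0.11 (0.30 without deletion replicate 3) and ion channel genes 0.11. B cell, T and NK cell, and adipocyte markers had medians of 0.28, -0.46 and -0.25 with the sex term and -2.01, -0.95 and -1.36 without it. The summed level of the B cell markers was 104 CPM in deletion replicate 2, against 7.55 to 15.6 in the other 5 libraries compared.

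Differences went with transcript length, read from the ratio of counts to TPM. Over 5 equal classes of the genes tested, from the shortest to the longest, the share higher in all 3 compound libraries was 1.73%, 6.79%, 10.1%, 15.99% and 22.8%, and the share lower in all 3 was 20.58%, 18.4%, 12.4%, 9.31% and 7.69%. The median log2 difference ran from -0.02 to 0.06 in the model with sex and from -0.25 to 0.19 without it. The rank correlation of length and difference, across genes that are not independent replicates, was 0.107 with the sex term, 0.403 without it and 0.0254 in females only.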
